A study of Mus musculus with 8 samples.

Results

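The comparison described here sets 4 libraries labelled with Tubuloside B against 4 libraries labelled without it, and together these are all 8 libraries of the series. Polyadenylated RNA came from RAW264.7, an established macrophage-like line from a virus-induced mouse tumour, and each of 4 labelled groups holds 2 libraries. The side without the compound label joins mock, which received the solvent DMSO, and LPS_IFNg, which received lipopolysaccharide (LPS) at 10 ng/ml with interferon-γ at 20 ng/ml for 24 h. The side with the label joins TubB, treated with Tubuloside B (a phenylethanoid glycoside of Cistanche plants), and LPS_IFNg_TubB, treated with both. The sources used here give neither a dose for the compound nor a time for mock and TubB.

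The sides were chosen by measured values of these same libraries, namely the levels of Nos2, Ptgs2, Gbp5 and Cx3cr1. The difference between the sides is therefore given as a description, with its standard error (SE) and with no p-value, and the number of genes that pass the threshold supports nothing about the choice. Each SE is worked back from edgeR's test, as the absolute log2 fold change divided by the square root of the F statistic. For a large difference with few counts on a side, this SE can fall below counting error alone. The marker genes conflict with the labels. Nos2, Ptgs2 and Gbp5, which macrophages are known to induce after LPS and interferon-γ, were low in both libraries labelled LPS_IFNg and high in both labelled TubB. Deposited labels are kept throughout, so each direction below compares libraries by their deposited label and is no statement about what the compound or the stimulus did. Whether replicates are separate cultures is not in the labels, and a p-value here covers only the spread among these libraries.

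In macrophages LPS is sensed by TLR4 with CD14 and MD-2, and signals through the adaptors MyD88 and TRIF to NF-κB and to interferon regulatory factors. Interferon-γ acts through JAK kinases on genes with the GAS element, while type I interferon acts through a complex with STAT2 and IRF9 on genes with the ISRE element. Activated macrophages are known for nitric oxide from inducible nitric oxide synthase, prostaglandins from cyclooxygenase 2, guanylate-binding proteins that attack intracellular pathogens, a shift towards glycolysis and slower division.

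Promoter sequences are shown for 4 genes that were far higher with the compound label, as examples of short motifs whose frequency is described further on. They were chosen because they hold matches, and the upstream windows of Ptgs2, Acod1 and Il1rn, also far higher, and a second Irf1 window hold none. Each line gives 150 bases upstream of the RefSeq transcript start on GRCm38.p6 (190 to 41 bases before it for Gbp5, Gbp2b and Cybb, 150 to 1 for Irf1), 5′ to 3′ on the gene's own strand, and capitals mark matches of the motifs searched. The Gbp5 stretch, chr3:142496744-142496893 (plus strand), holds an ISRE-like match, an NF-κB consensus match and a GAS-like match, in that order. The Gbp2b stretch, chr3:142594657-142594806 (plus strand), holds 1 ISRE-like match. The Irf1 stretch, chr11:53769864-53770013 (plus strand), holds a GAS-like match and then an NF-κB consensus match. The Cybb stretch, chrX:9469365-9469514 (minus strand), holds 2 ISRE-like matches.
Gbp5: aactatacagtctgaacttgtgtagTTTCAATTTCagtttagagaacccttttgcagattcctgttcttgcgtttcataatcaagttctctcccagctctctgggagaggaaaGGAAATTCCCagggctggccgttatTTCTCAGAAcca
Gbp2b: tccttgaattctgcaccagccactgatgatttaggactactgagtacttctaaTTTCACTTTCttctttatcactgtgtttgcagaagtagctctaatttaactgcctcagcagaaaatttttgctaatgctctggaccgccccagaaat
Irf1: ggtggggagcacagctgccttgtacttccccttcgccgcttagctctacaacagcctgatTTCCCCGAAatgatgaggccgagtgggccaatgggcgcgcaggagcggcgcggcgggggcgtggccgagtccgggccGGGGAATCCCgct
Cybb: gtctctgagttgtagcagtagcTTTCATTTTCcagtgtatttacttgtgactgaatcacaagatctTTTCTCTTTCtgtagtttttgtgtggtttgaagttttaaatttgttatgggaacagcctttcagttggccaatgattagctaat

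Counts summed to between 4767894 and 8413834 per library (5519706 to 6648055 without the label, 4767894 to 8413834 with it). Levels are CPM (counts scaled to library size), with library sizes corrected by TMM factors, and values are listed as mock replicates 1 and 2 then LPS_IFNg replicates 1 and 2 on the side without the label, and as TubB replicates 1 and 2 then LPS_IFNg_TubB replicates 1 and 2 on the side with it. Macrophage identity genes, 15 in all, summed to 8564 to 8845 CPM without the label and 10520 to 11170 CPM with it. Of these 13 were high enough to test, and Mertk had 0 counts in all 8 libraries. In any library, markers of T and NK cells summed to at most 0.220 CPM (6 of 8 genes at 0 throughout), of B cells to at most 0.628 CPM (3 of 5 at 0), of fibroblasts to at most 2.93 CPM (2 of 5 at 0), and of epithelial and endothelial cells to at most 0.879 CPM (3 of 7 at 0). Neutrophil markers summed to between 6.60 and 8.22 CPM without the label and between 38.3 and 57.1 CPM with it, through S100a8 (2.99 ± 0.15, log2 fold change ± SE) and Csf3r (1.49 ± 0.29), while S100a9, Ly6g, Mpo and Ngp were at 0 in all 8 libraries. The part of these genes in other results was not tested. In bulk RNA, fewer cells of a type and less RNA per cell cannot be told apart.

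Nos2, inducible nitric oxide synthase, stood at 176, 155, 199 and 166 CPM without the compound label and at 6974, 5769, 7439 and 6164 CPM with it. Ptgs2, cyclooxygenase 2, stood at 44.00, 43.4, 43.1 and 44.8 CPM and at 2209, 1359, 2051 and 1466 CPM. Both replicate 1 libraries with the label were above both replicate 2 libraries with the label for each of these genes. Gbp5, a guanylate-binding protein that promotes inflammasome assembly, had 0.1397, 0, 0 and 0.1696 CPM without the label, which is 2 counts over 4 libraries, and 673, 528, 723 and 585 CPM with it. That is a count ratio of 7932, with a 95% interval for counting error of 2196 to 65510. A single library moves it: the ratio is 11510 without mock replicate 1 and 12280 without LPS_IFNg replicate 2. Cx3cr1, the fractalkine receptor, went the other way, from 132, 114, 145 and 129.6 CPM to 8.58, 17.2, 10.6 and 14.7 CPM. The log2 fold changes were 5.24 ± 0.054 for Nos2, 5.31 ± 0.12 for Ptgs2 and -3.27 ± 0.14 for Cx3cr1, and in none of the 4 genes did a library of one side reach the other.

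**Figure D1:**
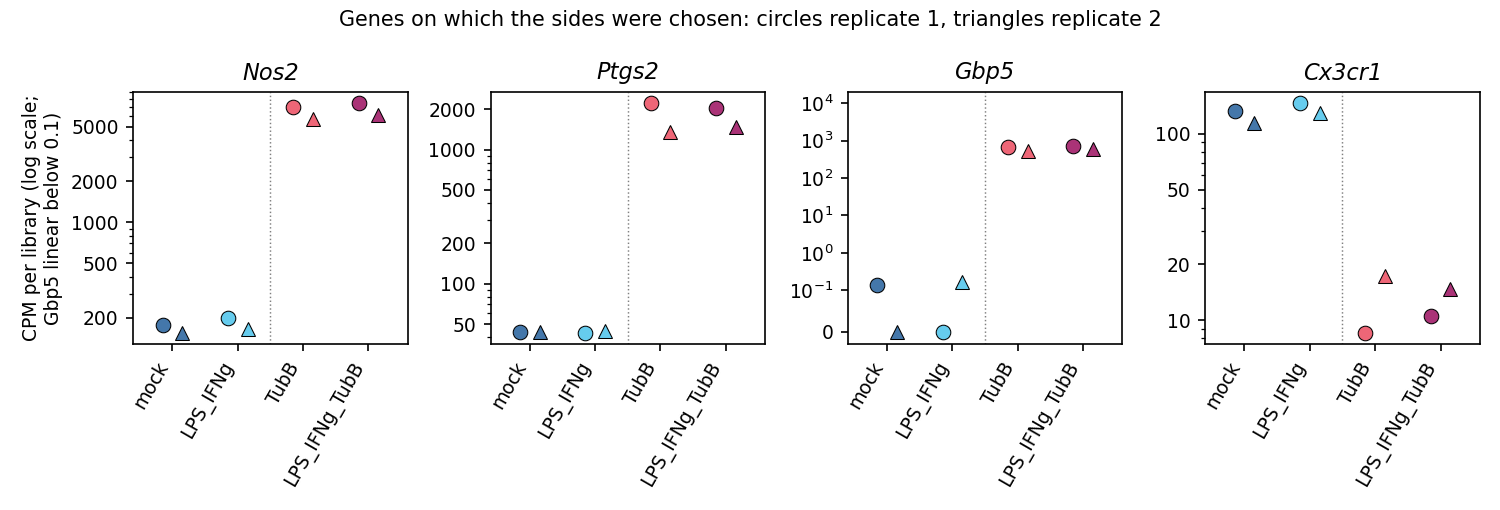
CPM of Nos2, Ptgs2, Gbp5 and Cx3cr1 in each of the 8 libraries, by label (x axis) on a log scale that is linear below 0.1 for Gbp5, with circles for replicate 1 and triangles for replicate 2. Libraries labelled LPS_IFNg lie with mock and libraries labelled TubB lie with LPS_IFNg_TubB, for example at 155 to 199 against 5769 to 7439 CPM for Nos2.

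The same split ran through the whole table. Over the 10626 genes tested, the first principal component held 86.7% of the variance and separated the sides, and the root mean square log2 distance between libraries was 0.932 to 1.07 across the sides and 0.277 to 0.352 within them. Within a side, libraries of one label were no closer (0.297 to 0.352) than libraries of different labels that share a replicate number (0.277 to 0.347). At an adjusted p under 0.05, edgeR's quasi-likelihood test called 66.5% of genes, 3539 higher (33.3%) and 3527 lower (33.2%) with the label, and with library totals in place of TMM factors these were 2423 and 5115. That scaling moved the median of all genes from -0.016 to -0.23, and changes below are relative to the median under TMM factors. Libraries did not overlap for 3218 genes that were higher (30.3%) and 3175 that were lower (29.9%). Nothing is read from these shares, since the contrast chose the sides.

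The difference was lopsided in size rather than in number. At least 2-fold, 1064 genes were higher (10.0%) and 645 lower (6.07%). At least 4-fold there were 380 and 56, at least 8-fold 202 and 10, and at least 16-fold 121 and 1. At least 256-fold there were 25 and 0. These counts use fitted values, which depend on the prior count for genes with 0 counts on one side. Some of the 25 are such genes, for example Tgm1, with 0 counts without the label and 122 with it. For those genes the counts give only a lower bound on the fold change. The 1 gene lower by at least 16-fold was Myh7b, a myosin heavy chain gene named here after its values were seen, with 103 counts over the 4 libraries without the label against 2 over the 4 with it, both in TubB replicate 2. Its count ratio was 45.2 (95% interval 12.2 to 378.5), and without that library it was at least 19.7-fold lower. Most called genes, 5357 of 7066, differed by less than 2-fold.

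**Figure D2:**
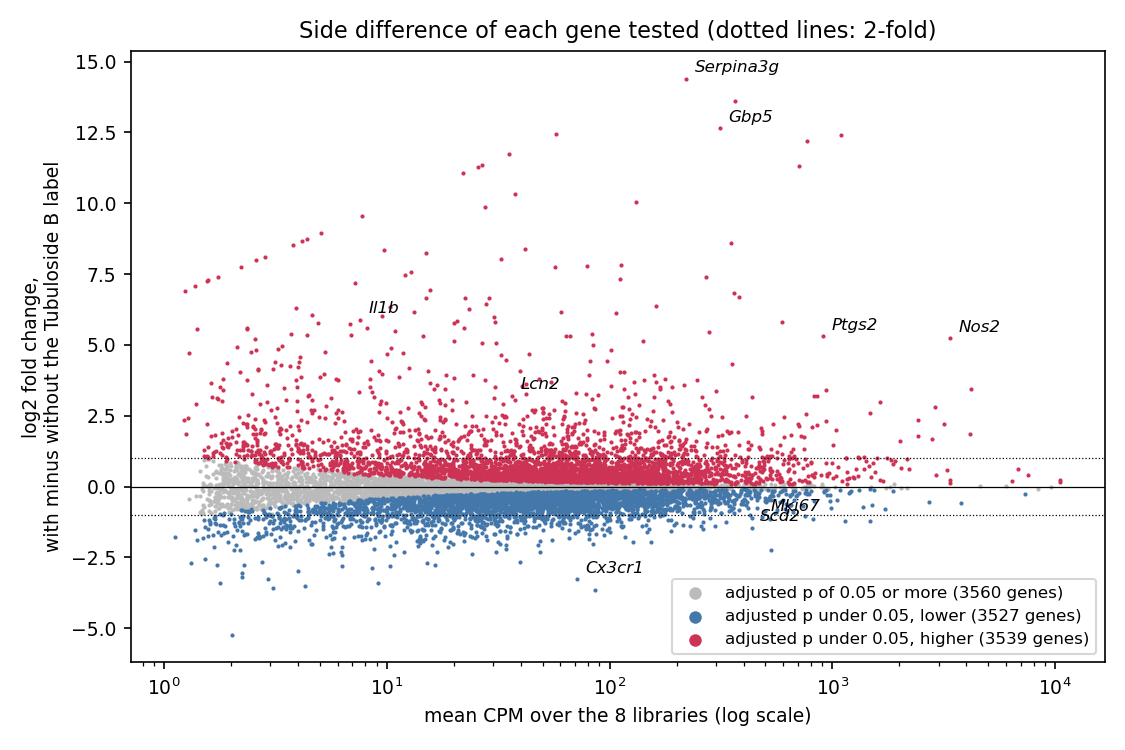
Log2 fold change between the sides (y axis) against mean CPM over the 8 libraries (x axis, log scale) for the 10626 genes tested, coloured by call. The upper tail reaches far beyond the lower one, with 121 genes at least 16-fold higher and 1 at least 16-fold lower, and fitted values of genes with 0 counts on one side depend on the prior count.

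The sets of genes at least 2-fold higher or lower held different shares of the counts on each side. The direction of those shares follows from how the sets were picked. Genes called at least 2-fold higher held 5.71% to 6.02% of all counts without the label and 17.9% to 20.1% with it. Genes called at least 2-fold lower held 4.11% to 4.31% and 1.31% to 1.67%. Ribosomal protein genes held 4.17% to 4.38% and 3.405% to 3.504%.

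The 10 genes with the largest gain in mean CPM were Acod1, Nos2, Vim, Il1rn, Prdx1, Ccl2, Psap, Pkm, Odc1 and Cybb. Acod1, which makes itaconate from cis-aconitate, stood at 698, 689, 738 and 689.6 CPM without the label and 7848, 7441, 7743 and 7519.99 CPM with it. Il1rn, the interleukin 1 receptor antagonist, went from 679, 748, 696 and 753 CPM to 5603, 4476, 5384 and 4675 CPM. Cybb, the catalytic subunit of the phagocyte NADPH oxidase, whose promoter stretch is shown above, went from 363, 340.3, 389 and 377 CPM to 2912, 2785, 3119 and 2817 CPM. For these 3 genes the lowest library with the label was several-fold above the highest without it. The log2 fold changes were 3.44 ± 0.045, 2.803 ± 0.063 and 2.99 ± 0.047. Vim (vimentin, an intermediate filament protein), Prdx1 (an antioxidant peroxiredoxin), Ccl2 (a monocyte chemokine), Psap (prosaposin, a lysosomal protein precursor) and Odc1 (ornithine decarboxylase, of polyamine synthesis) were higher by 1.85 ± 0.058, 2.197 ± 0.093, 2.37 ± 0.05, 1.67 ± 0.046 and 1.78 ± 0.046. Pkm, pyruvate kinase of glycolysis, was abundant on both sides and higher by 0.62 ± 0.046, which is less than 2-fold.

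The 10 genes with the largest loss were Spp1, Eef1a1, Ncl, Hsp90b1, Ptma, Mycn, Hspa5, Hspa8, Set and Hspd1. Spp1, which encodes the secreted protein osteopontin, went from 4618, 4604, 4537 and 4502 CPM to 3234, 3055, 2933 and 2895 CPM. Ncl, nucleolin of ribosome assembly, went from 2147, 1965, 2152 and 1987 CPM to 854, 962, 823 and 922 CPM. Mycn, a MYC-family growth regulator, showed the largest fold change among them, from 919.9, 844, 882 and 846 CPM to 175, 200.02, 169 and 201 CPM. Of the 10, 5 differed by less than 2-fold, Spp1 among them. Chaperones made up 4 of the 10: Hsp90b1 (-0.80 ± 0.046) and Hspa5 (-0.65 ± 0.056) of the endoplasmic reticulum, Hspa8 (-0.71 ± 0.048) of the cytosol and Hspd1 (-1.02 ± 0.048) of mitochondria. The translation elongation factor Eef1a1 was lower by a small margin, -0.26 ± 0.041. Log2 fold changes were -2.22 ± 0.052 for Mycn, -1.21 ± 0.048 for Ncl, -1.203 ± 0.047 for Ptma (prothymosin alpha), -1.15 ± 0.046 for Set (a histone chaperone) and -0.59 ± 0.043 for Spp1.

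Where mean log2 CPM was 5 or more, the 10 largest differences upward were in Gbp2b, Gbp2, Gbp7, Rsad2, Irf1, Parp14, Cd40, Csf3, Cd274 and Ptgs2. Gbp2b, a guanylate-binding protein, had 0.698, 0, 0.494 and 0.339 CPM without the label and 2389, 1815, 2435 and 2099.9 CPM with it. Irf1, a transcription factor induced by interferon-γ, had 7.403, 5.91, 5.27 and 5.94 CPM and 729.98, 677, 757 and 692 CPM. Rsad2, an antiviral enzyme (viperin), had 3.63, 2.74, 2.799 and 3.56 CPM and 736, 320.4, 722 and 377 CPM. With the label both genes were lower in both replicate 2 libraries than in both replicate 1 libraries, by a small margin for Irf1 and a large one for Rsad2. The difference in Rsad2 is tested below. Csf3, the granulocyte colony-stimulating factor, went from 18.2, 23.2, 18.9 and 22.6 CPM to 1312, 1056, 1252 and 1065 CPM. On the log2 scale Gbp2b, Gbp2, Gbp7, Rsad2 and Irf1 stood at 12.403 ± 0.12, 11.31 ± 0.10, 8.58 ± 0.088, 7.39 ± 0.11 and 6.85 ± 0.073. Gbp2b and Gbp2 rest on 10 and 14 counts over the 4 libraries without the label, so their SE understates counting error. Parp14 (an ADP-ribosyltransferase), Cd40 (a costimulatory receptor), Csf3 and Cd274 (the checkpoint ligand PD-L1) stood at 6.696 ± 0.074, 6.39 ± 0.10, 5.82 ± 0.077 and 5.47 ± 0.077. Guanylate-binding proteins are close paralogs, so single levels are uncertain where reads were shared.

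The 10 largest differences downward at that level were smaller. They were Igfbp4, Cx3cr1, Mycn, Ccdc85c, Slc7a5, Itga4, Rasgrp3, Aspm, Ifrd2 and Dkc1. Igfbp4, which binds insulin-like growth factors, went from 159, 155, 149 and 177 CPM to 10.3, 16.7, 9.19 and 12.9 CPM. Slc7a5, a transporter of large neutral amino acids, went from 143, 139, 125 and 137 CPM to 29.9, 36.9, 28.5 and 37.6 CPM. Itga4, the integrin alpha 4 chain, went from 219.99, 181, 212 and 204 CPM to 38.05, 64.3, 45.5 and 57.4 CPM. In all 3 genes both replicate 2 libraries with the label were above both replicate 1 libraries with the label. Their log2 fold changes were -3.65 ± 0.095, -2.02 ± 0.076 and -1.96 ± 0.15. Rasgrp3 (an exchange factor for Ras and Rap), Aspm (a mitotic spindle protein) and Dkc1 (dyskerin, of ribosomal RNA modification and telomerase) stood at -1.95 ± 0.06, -1.91 ± 0.11 and -1.85 ± 0.083, and Ccdc85c and Ifrd2 at -2.04 ± 0.11 and -1.895 ± 0.092.

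A set of 19 genes had 0 counts in all 4 libraries without the label and at least 10 counts in each library with it, and 0 genes had the opposite pattern. The 5 named genes with the most counts were Serpina3g, Gbp6, Tgtp1, Gbp10 and Fpr2. Serpina3g, a serine protease inhibitor, had 457, 389, 493 and 431 CPM with the label, and Fpr2, a formyl peptide receptor, had 55.6, 43.5, 52.4 and 53.8 CPM. Against a floor of 3 counts over the 4 libraries at 0, these were at least 3764-fold and 437-fold higher. The interferon-inducible GTPases Gbp6, Tgtp1 and Gbp10 were at least 961-fold, 598-fold and 449.7-fold higher. The other 14 include Cxcl9, Ly6a, Ifi44l, Tgm1 and Dnah2, named after their values were seen, and C1s1. In the other direction counts were small: Asb10, an ankyrin repeat protein of ubiquitin ligases, had 55 counts over the 4 libraries without the label and 0 with it, at least 16.1-fold lower. Alpk3, Slc9a9, Cplx2 and Asb5 were at least 5.27-fold, 4.68-fold, 4.099-fold and 1.46-fold lower, on 18 counts or fewer. Bounds cover counting error only, since the labels name no molecular identifiers that would tell molecules from copies.

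Genes were then read by role, from a set of lists. The lists were drawn up with earlier results of these data known, so their counts describe and support nothing. A rule named up to 3 called members with the largest difference and the flattest member of each list, and further members were named for their role after their values were seen. Each count is of members that passed the filter, to be read against 33.3% higher, 33.2% lower and a median log2 fold change of -0.016 over all genes tested.

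**Figure D3:**
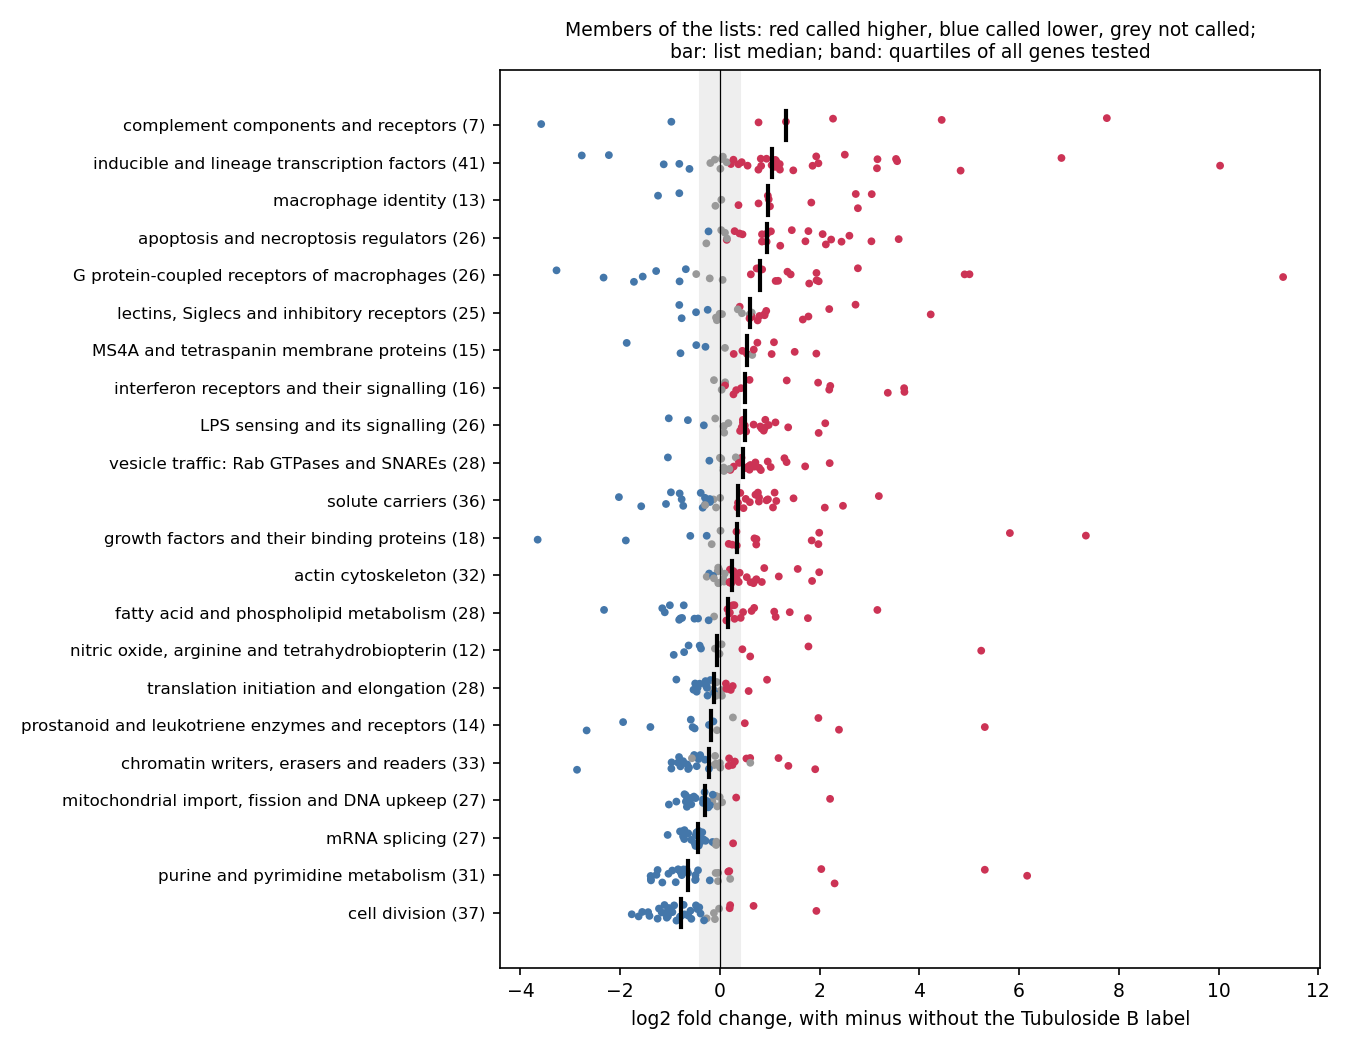
Log2 fold change between the sides (x axis) for every tested member of the lists plotted (y axis, with the number tested), red for called higher, blue for called lower and grey for neither, with a bar at each list's median and a band over the quartiles of all genes. Among the lists plotted, which leave out markers of other cell types, medians run from -0.79 for cell division to 1.33 for complement.

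Of 26 genes of LPS sensing and its signalling, 18 were higher and 3 lower (median 0.51). The adaptors of the TRIF branch were higher, Ticam2 by 2.11 ± 0.084 and Ticam1 by 1.37 ± 0.083, as was the kinase Irak2 by 1.98 ± 0.057. The receptor Tlr4 itself did not pass (-0.091 ± 0.07), whereas its co-receptor Cd14 was higher by 0.98 ± 0.043 and the MD-2 gene Ly96 by 0.84 ± 0.18. Ikbkb, the IκB kinase subunit, was the flattest member at 0.073 ± 0.074. The lower genes were Tab1 (-1.02 ± 0.19), an activator of the kinase TAK1, Traf3 (-0.64 ± 0.067) and Irak1 (-0.32 ± 0.064).

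Of 16 interferon receptor and signalling genes, 12 were higher and 0 lower (median 0.51), or 9 higher and 2 lower with library totals. Stat2, a signal transducer of type I interferon, had 17.6, 17.3, 17.6 and 20.9 CPM without the label and 278, 199, 269.9 and 209 CPM with it, a difference of 3.695 ± 0.081. Usp18, a feedback inhibitor that removes ISG15, differed by 3.702 ± 0.12. The receptor chain genes Ifngr1, Ifngr2 and Ifnar1 stood at -0.12 ± 0.14, 0.11 ± 0.061 and 0.11 ± 0.069 and did not pass. Pias1, a SUMO ligase, was the flattest at 0.037 ± 0.089.

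Of 51 inducible and lineage transcription factors 41 were tested, with 30 higher and 5 lower (median 1.04). Batf2, an AP-1-family factor, had 0.419, 0.288, 0.165 and 0 CPM without the label and 264, 243, 282 and 259 CPM with it. Irf7, the interferon regulatory factor of the antiviral response, had 6.56, 5.91, 7.41 and 7.46 CPM and 241, 132, 237 and 171 CPM. Egr1, Atf3 and Irf8 were higher by 3.53 ± 0.15, 3.16 ± 0.10 and 3.15 ± 0.067. The lower members include Tfap4 (-2.77 ± 0.17), Mycn, Egr3 (-1.12 ± 0.39, or -0.83 and not called without TubB replicate 2) and Tfeb (-0.61 ± 0.16). Hif1a transcript, which encodes the hypoxia-inducible factor, was flat at 0.011 ± 0.046 with TMM factors and -0.21 with library totals.

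Genes around Nos2 were mixed. In the nitric oxide, arginine and tetrahydrobiopterin list, 4 of 12 tested genes were higher and 5 lower (median -0.052), and Ass1, Arg2, Slc7a2, Ddah2 and Srm were below the filter. Gch1, the entry enzyme of tetrahydrobiopterin synthesis, was higher by 0.45 ± 0.076 and Asl, of arginine resynthesis, by 0.61 ± 0.079. The later tetrahydrobiopterin enzymes Pts and Spr were lower, at -0.63 ± 0.15 and -0.38 ± 0.092, as was the arginine transporter Slc7a1, which had 281, 269, 282 and 278 CPM without the label and 136, 171, 133 and 142 CPM with it. Azin1, antizyme inhibitor, was flat (-0.0057 ± 0.047).

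The cyclooxygenase genes went opposite ways. Ptgs1, the constitutive cyclooxygenase 1, had 71.9, 71.1, 63.1 and 66.5 CPM without the label and 6.82, 11.8, 13.1 and 10.8 CPM with it, while Ptgs2 went the opposite way. Their log2 fold changes were -2.67 ± 0.12 and 5.31 ± 0.12. Of 14 prostanoid and leukotriene genes 4 were higher and 8 lower (median -0.17). Ptges, the inducible prostaglandin E synthase, was higher (2.39 ± 0.094), and its constitutive counterparts Ptges2 and Ptges3 were lower (-0.58 ± 0.11 and -0.55 ± 0.049). The leukotriene enzymes Alox5, Ltc4s and Lta4h and the protein Alox5ap were all among the lower 8, at -1.94 ± 0.15, -1.39 ± 0.26, -0.50 ± 0.083 and -0.22 ± 0.067. Alox5ap was at -0.16 and not called without mock replicate 2.

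Growth factors gave 12 higher and 4 lower of 18 tested (median 0.34). Edn1, the vasoconstrictor peptide endothelin 1, had 1.12, 1.44, 1.48 and 1.36 CPM without the label and 254, 189.6, 235 and 204 CPM with it. Csf1 and Vegfa were higher by 1.99 ± 0.13 and 1.84 ± 0.10. Igf1 was lower, at -1.88 ± 0.23 together with its binding protein Igfbp4, and the receptor Csf1r of the macrophage growth factor was lower too, from 469.6 ± 20.2 to 199 ± 19.7 CPM (mean ± SD, n = 4 each).

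Of 26 G protein-coupled receptors, 16 were higher and 7 lower (median 0.81, also with Fpr2 at its bound). Ccrl2, a chemerin-binding receptor, had 5.45, 4.04, 4.94 and 5.77 CPM without the label and 194, 113, 213 and 133 CPM with it. Gpr18 was higher by 4.91 ± 0.27, Adgre1 (F4/80) by 2.77 ± 0.11 and C3ar1, the receptor of complement fragment C3a, by 1.94 ± 0.051. Receptors of lipid ligands went both ways, with S1pr1 at -2.33 ± 0.26, Gpr183 at -1.55 ± 0.17 and Lpar5 at -1.28 ± 0.13 against S1pr2 at 1.42 ± 0.089 and Ptafr at 1.12 ± 0.077. C5ar1 was lower, at -1.72 ± 0.46, opposite to C3ar1. The adenosine receptor Adora2a was flat (0.056 ± 0.10).

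Lectin and inhibitory receptor genes gave 13 higher and 4 lower of 25 (median 0.60). Clec7a (dectin-1) and Clec12a were higher by 2.72 ± 0.27 and 2.19 ± 0.079. Clec2d was higher by 4.23 ± 0.42, or 5.13 without mock replicate 2. Sirpa, the inhibitory receptor for CD47, was flat at 774, 786, 794 and 801 CPM and 794, 778, 789 and 789 CPM. Of 7 complement genes tested out of 17, 5 were higher and 2 lower (median 1.33, also with C1s1 at its bound). Of the C1 proteases, C1s1 was at least 36.8-fold higher and C1ra higher by 4.45 ± 0.27, and C3 was higher by 2.27 ± 0.13. Properdin (Cfp) and the receptor Cd93 were lower, at -0.97 ± 0.063 and -3.58 ± 0.41.

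Among 15 MS4A and tetraspanin genes 9 were higher and 4 lower (median 0.54), led by Ms4a6d (1.94 ± 0.074) and, downward, Cd81 (-1.87 ± 0.17). Ms4a6c was higher by 1.501 ± 0.36 in the pooled comparison, but stood at 0.75 ± 0.49 in LPS_IFNg_TubB minus LPS_IFNg alone and did not pass there. Of 36 solute carriers 19 were higher and 13 lower (median 0.36). Slc15a3, a lysosomal histidine and peptide transporter, had 163, 172, 165 and 176 CPM without the label and 1679.7, 1401, 1645 and 1455 CPM with it. Slc2a1 (the glucose transporter GLUT1) and Slc16a3 (the lactate exporter MCT4) were higher by 2.11 ± 0.11 and 1.48 ± 0.058. Amino acid carriers went both ways. Slc7a5 stood at -2.02 ± 0.076, Slc43a2 at -0.98 ± 0.069, Slc1a5 at -0.81 ± 0.055, Slc7a6 at -0.73 ± 0.081 and Slc38a2 at -0.38 ± 0.047. Upward were Slc7a11 at 1.098 ± 0.048, Slc7a8 at 1.07 ± 0.063, Slc3a2 at 0.79 ± 0.054, Slc7a7 at 0.48 ± 0.12 and Slc38a6 at 0.36 ± 0.064. The folate carrier Slc19a1 was lower, at -1.58 ± 0.11.

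Structural and transport genes leaned upward, by small margins. Actin cytoskeleton genes gave 20 higher and 2 lower of 32 (median 0.25). At the top were the thymosin Tmsb10 (1.99 ± 0.079), vimentin, which is also on this list, Marcksl1 (1.56 ± 0.26) and the thymosin Tmsb4x (1.18 ± 0.051). Vesicle traffic genes gave 19 higher and 2 lower of 28 (median 0.47), with Stx11, a SNARE of lymphocyte and phagocyte secretion, at 2.203 ± 0.11 and Rab20 at 1.71 ± 0.094. With library totals the actin list gave 15 higher and 12 lower and the vesicle list 15 higher and 7 lower, so the upward lean of the actin list depends on the scaling.

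Apoptosis and necroptosis regulators gave 21 higher and 1 lower of 26 (median 0.95). The death receptor Fas had 1.82, 3.03, 1.98 and 3.39 CPM without the label and 37.8, 26.7, 31.95 and 27.5 CPM with it. Both killers and protectors were among the higher genes. The BH3-only genes Bcl2l11 and Pmaip1 and the necroptosis effector Mlkl stood at 2.23 ± 0.087, 2.06 ± 0.093 and 1.72 ± 0.064. The survival genes Bcl2a1a, Birc3 and Cflar stood at 3.04 ± 0.36, 2.13 ± 0.14 and 1.78 ± 0.05, and Bcl2a1a is uncertain because near-identical paralogs can share its reads. Bax was flat (0.028 ± 0.05, or -0.19 with library totals), and Casp9 was the 1 lower gene (-0.23 ± 0.083, or -0.20 and not called without LPS_IFNg_TubB replicate 2).

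Lipid genes were split. Of 28, 16 were higher and 11 lower (median 0.17), or 8 higher and 12 lower with library totals, when the median was -0.046. Among the higher genes were ones of uptake and storage: the lipase inhibitor Hilpda had 22.8, 25.7, 23.4 and 24.8 CPM without the label and 266, 171, 233 and 202 CPM with it, the scavenger receptor Cd36 had 260.4, 292, 258 and 291 CPM and 921, 917, 953 and 953 CPM, and Plin2, the lipid droplet coat protein, was higher by 1.09 ± 0.10. Among the lower genes were ones of synthesis and elongation: the elongase Elovl6 had 55.3, 50.6, 54.01 and 46.5 CPM and 8.798, 12.6, 7.59 and 10.9 CPM, and Fasn and Acaca, fatty acid synthase and acetyl-CoA carboxylase, stood at -1.15 ± 0.10 and -1.104 ± 0.093. The log2 fold changes of Hilpda, Cd36 and Elovl6 were 3.16 ± 0.10, 1.77 ± 0.046 and -2.32 ± 0.12. Acly, ATP citrate lyase, went against the other synthesis genes at 0.64 ± 0.045. Not every member kept to a grouping by uptake and storage. Among lipase genes Pnpla2 (1.40 ± 0.078) and Lipa (0.19 ± 0.046) were higher and Lpl was lower (-0.79 ± 0.043).

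Nucleotide genes leaned downward, with 21 of 31 lower and 6 higher (median -0.64). The lower ones include the de novo purine enzymes Gart (-1.39 ± 0.062), Ppat (-1.27 ± 0.083), Pfas (-1.15 ± 0.064) and Atic (-1.03 ± 0.058) and the de novo pyrimidine genes Cad (-1.25 ± 0.053), Umps (-0.95 ± 0.089) and Ctps (-1.38 ± 0.073). The 6 higher ones were Upp1, Pnp, Samhd1, Cmpk2, Hprt and Xdh: Upp1, uridine phosphorylase, had 1.54, 0.865, 2.63 and 1.696 CPM without the label and 133, 103, 128 and 112 CPM with it, Pnp, purine nucleoside phosphorylase, had 53.8, 51.9, 50.4 and 50.02 CPM and 298, 213, 280.4 and 233 CPM, and Samhd1, which destroys dNTPs, was higher by 2.03 ± 0.057. Log2 fold changes were 6.16 ± 0.13 for Upp1, 2.301 ± 0.064 for Pnp and 5.31 ± 0.13 for Cmpk2, a mitochondrial nucleotide kinase induced by interferon.

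Mitochondrial import, fission and DNA upkeep genes gave 20 lower and 2 higher of 27 (median -0.30). The 2 higher genes were the protease gene Lonp1 (0.33 ± 0.048) and Sod2, mitochondrial superoxide dismutase, which stood at 190.4, 195, 192 and 189 CPM without the label and 902, 838, 925 and 887 CPM with it (2.21 ± 0.046). The chaperonin Hspd1 and the mitochondrial DNA packaging factor Tfam were lower, at -1.02 ± 0.048 and -0.87 ± 0.10, and the fusion gene Mfn2 was flat (-0.0032 ± 0.074).

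Genes of RNA processing and of division were lower too, and by less than 2-fold in most cases. Splicing genes gave 23 lower and 1 higher of 27 (median -0.44), with Snrpd1 at -1.05 ± 0.086 and Srsf7 at -0.75 ± 0.061. Translation genes gave 14 lower and 7 higher of 28 (median -0.12), and the cap-binding inhibitors were split, Eif4ebp2 at -0.87 ± 0.061 and Eif4ebp1 at 0.58 ± 0.072. Chromatin genes gave 16 lower and 9 higher of 33 (median -0.22). Hdac9 had 17.6, 14.9, 14.98 and 13.6 CPM without the label and 1.32, 3.52, 0.6896 and 1.99 CPM with it, while the histone demethylases Kdm6b and Kdm5b were higher by 1.91 ± 0.10 and 1.37 ± 0.10. Sirt1 was flat (0.0017 ± 0.11).

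Cell division gave 29 lower and 4 higher of 37 tested (median -0.79). The spindle checkpoint kinase Bub1b had 181, 175, 189.5 and 182 CPM without the label and 46.6, 61.01, 42.8 and 61.5 CPM with it. Tk1, thymidine kinase of S phase, had 71.5, 62.6, 64.5 and 55.6 CPM and 13.6, 26.3, 19.3 and 20.8 CPM. The mitotic genes Plk1, Cdc20 and Ccnb2 stood at -1.56 ± 0.087, -1.44 ± 0.078 and -1.41 ± 0.10, and the cyclin D genes Ccnd1 and Ccnd2 at -1.11 ± 0.068 and -1.16 ± 0.085. Cdkn1a, the CDK inhibitor p21, which has a numbered copy in the assembly, was higher by 1.94 ± 0.18, and Cdkn1b, the inhibitor p27, by 0.68 ± 0.11. Pcna, the replication clamp, was flat (-0.015 ± 0.048), while the 6 helicase genes Mcm2 to Mcm7 were all called lower.

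Macrophage identity genes gave 9 higher and 2 lower of 13 (median 0.96). Cd86, a costimulatory ligand, had 3.35, 5.05, 4.61 and 3.73 CPM without the label and 39.1, 31.3, 34.3 and 34.6 CPM with it, and Fcgr3, an IgG receptor, had 19.4, 25.4, 19.4 and 26.3 CPM and 148, 132, 165 and 155 CPM. Log2 fold changes were 3.05 ± 0.16 and 2.73 ± 0.09. Lysozyme (Lyz2) was flat, at 4564, 4393, 4546 and 4647 CPM and 4697, 4389, 4808 and 4649.5 CPM. With library totals Lyz2 stood at -0.19. Csf1r was lower, at -1.24 ± 0.051.

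Markers that macrophages can share with dendritic cells and osteoclasts were mixed. Dendritic cell markers summed to 40.3 to 43.6 CPM without the label and 40.4 to 54.4 CPM with it. Xcr1, a chemokine receptor of cross-presenting dendritic cells, was higher by 5.34 ± 0.39, or 6.37 without mock replicate 2, while Flt3 and Siglech were at 0 in all 8 libraries and Itgax was lower, at -0.36 ± 0.092. The 5 osteoclast genes summed to 8137 to 9133 CPM without the label and 7610 to 8667 CPM with it, with Ctsk at -0.10 ± 0.045, Ocstamp higher by 1.71 ± 0.37 (0.93 ± 0.51 and not called in LPS_IFNg_TubB minus LPS_IFNg alone) and Calcr at 0. The part of these genes in other results was not tested.

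Motifs in the promoters of the higher genes were then counted. Windows of 300 bases, 250 before and 50 after each RefSeq transcript start on GRCm38.p6, matched 8354 of the 10626 tested genes. The letters searched on both strands were GAAANNGAAA (ISRE-like), TTCNNNGAA (GAS-like), the NF-κB consensus and GGCGGGAA (E2F-like), with any base at N, and a gene counted once if any of its windows held a match. Matches of different motifs may overlap. An ISRE-like match was present in 33.0% of the 91 genes at least 16-fold higher, 21.4% of the 281 at least 4-fold higher and 11.9% of the 821 at least 2-fold higher, against 3.82% of all tested genes and 2.06% of the 485 at least 2-fold lower. GAS-like matches were present in 20.9%, 13.2% and 11.4% of the same 3 sets, against 8.33% and 7.01%. NF-κB matches were present in 11%, 11.4% and 10.2%, against 6.02% and 5.77%. E2F-like matches were present in 3.30%, 3.20% and 3.17%, against 4.88% and 5.57%, on 3 of 91 genes in the first set. Over the 27025 genes of the promoter table the shares were 3.99%, 9.55%, 5.14% and 2.52%. A match is a string of letters, not a bound site, and these shares rest on the contrast that chose the sides.

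**Figure D4:**
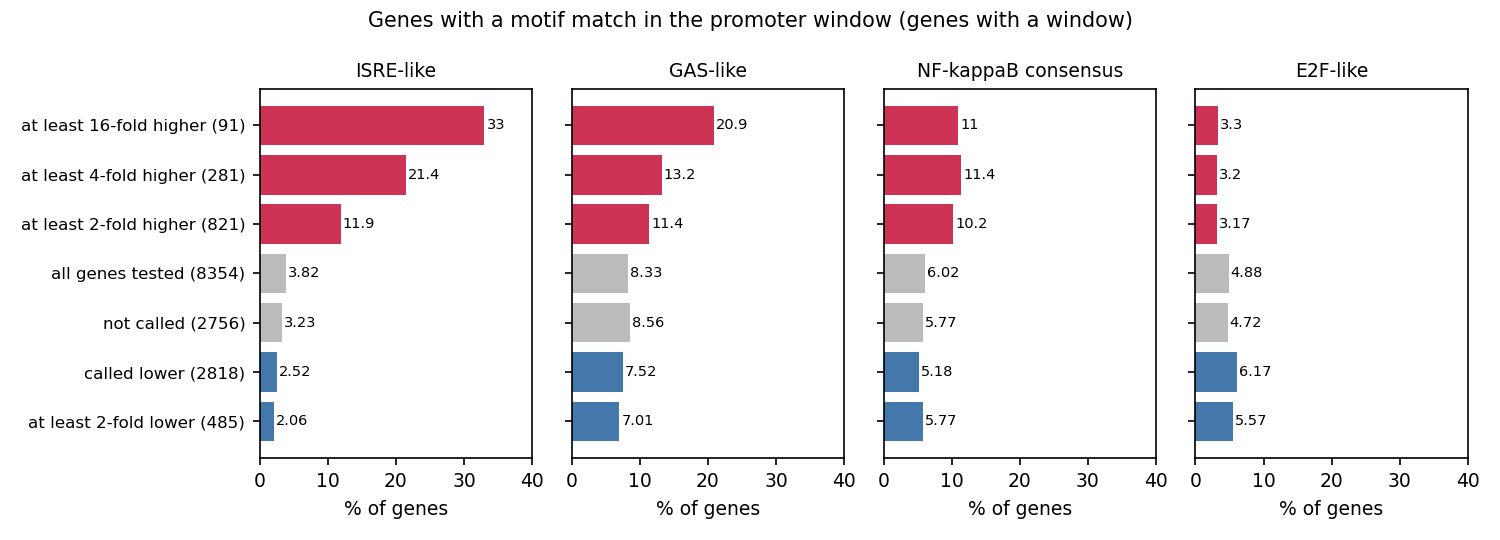
Percent of genes (x axis) with a match of each motif in their promoter window, by size and direction of the side difference (y axis, with the number of genes that have a window). ISRE-like matches rise in steps from 3.82% of all genes to 33.0% of genes at least 16-fold higher, and E2F-like matches do not.

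Tests were also run across all genes on contrasts other than the difference between the sides. The 4 markers give no evidence in the first 2 of these, since their levels under each label chose the sides. Genes that follow the markers are affected by that choice too, so results of these 2 tests support nothing about the sides. The first asked whether the stimulus label separates libraries within each side. Averaged over the sides, LPS_IFNg minus mock and LPS_IFNg_TubB minus TubB gave 0 genes higher (0.0%) and 0 lower (0.0%) of 10626 by edgeR's quasi-likelihood test with Benjamini-Hochberg adjustment, with a smallest adjusted p of 1. At an unadjusted p under 0.05 there were 274 genes, 2.58% of those tested, and DESeq2 and limma-voom also called 0, with 49 and 270 genes unadjusted. The genes of smallest p were Dmwd (-0.43 ± 0.12), lower in 4 of 4 pairs of same-numbered libraries, and Cd72, a lectin-like inhibitory receptor, higher in 4 of 4 (0.30 ± 0.09), both at an adjusted p of 1. A test that calls 0 genes does not show that the labels act alike, and the median absolute difference of 0.063 bears on its size.

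The second test asked whether the side difference depends on the stimulus label. TubB minus mock and LPS_IFNg_TubB minus LPS_IFNg share no library, and their log2 fold changes over the 10626 genes, which are not independent replicates, had a Pearson correlation of 0.948. Each is a part of the difference that chose the sides, so a high correlation was favoured by the choice and is given as a description. The interaction called 0 genes higher (0.0%) and 0 lower (0.0%) in edgeR's test, with 285 genes at an unadjusted p under 0.05, and 0 in DESeq2 and limma-voom, with 43 and 271 unadjusted. With a block within each side, 515 genes were under 0.05 unadjusted in edgeR's test. The gene nearest to a call was AY036118, an unnamed model given here after its value was seen (-0.63 ± 0.11, edgeR adjusted p = 0.057), which was called in 4 of the alternatives listed in the closing section. Among named genes Sap30, a subunit of a histone deacetylase complex, and Bc1, a brain cytoplasmic RNA, had the smallest p. Sap30 stood at 58.8, 61.01, 53.5 and 55.96 CPM without the compound label and 71.7, 63.7, 92.4 and 94.5 CPM with it, Bc1 at 78.2, 91.02, 69.3 and 89.2 CPM and 106, 118, 141 and 155 CPM, and neither passed edgeR's test after adjustment.

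The third test asked how replicate 1 and 2 libraries differ, with the sides in the model. The stimulus label was not in the model, so mock and LPS_IFNg libraries counted as replicates of each other, as did TubB and LPS_IFNg_TubB libraries. Here 9 genes were higher (0.0847%) and 57 lower (0.536%) in replicate 2. Gpx1, a glutathione peroxidase that contains selenocysteine, had 377, 397, 398 and 392 CPM in the replicate 1 libraries (mock, LPS_IFNg, TubB and LPS_IFNg_TubB) and 235, 255, 247 and 273 CPM in the replicate 2 libraries, with no overlap on either side. Its log2 difference was -0.63 ± 0.047 (edgeR adjusted p = 9.98e-13). Selenow, another selenoprotein gene, was lower, at -1.07 ± 0.094 (edgeR adjusted p = 1.45e-09), from 49.03, 44.5, 111 and 117 CPM to 29.1, 20.5, 44.7 and 56.1 CPM. Sephs2, which makes the selenium donor for these proteins, was higher in replicate 2 (0.38 ± 0.055, edgeR adjusted p = 2.19e-05). Interferon-inducible genes were among the lower ones. Rsad2 was lower, at -1.02 ± 0.081 (edgeR adjusted p = 4.94e-08), Cmpk2 at -0.94 ± 0.10 (5.86e-08) and Ifit2 at -0.75 ± 0.083 (6.10e-08). For Rsad2, libraries without the label gave 2.74 to 3.63 CPM in both replicates, so the difference lay in the libraries with it, and DESeq2 did not call it (-0.73, adjusted p = 0.486). The other named genes that were higher in replicate 2 were Slc48a1, a haem transporter (0.45 ± 0.061), Gclm, a subunit of glutathione synthesis (0.41 ± 0.071), Rhoj (0.50 ± 0.11) and Bmyc (0.99 ± 0.22), at edgeR adjusted p-values of 5.69e-06 to 0.0118. Without TubB replicate 2 the lower set held 30 genes, and without LPS_IFNg_TubB replicate 1 the counts were 4 and 24. Bmyc was not called without mock replicate 1 (1.01), TubB replicate 2 (0.89) or LPS_IFNg_TubB replicate 1 (0.91), and Rhoj not without LPS_IFNg replicate 2 (0.46).

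The fourth test asked whether the side difference itself was alike in the replicate numbers. The stimulus label was again left out, so each replicate number on each side joined libraries of both stimulus labels. By edgeR's test with Benjamini-Hochberg adjustment, in replicate 2 it was shifted upward for 169 genes (1.59%) and downward for 209 (1.97%). Of the 169, 153 were genes called lower with the label, and of the 209, 200 were called higher, so the side difference was smaller in replicate 2 for most of them. The median absolute log2 difference between the sides was 0.464 in replicate 1 and 0.375 in replicate 2 over all tested genes. Without TubB replicate 2 the counts were 67 and 136, and without mock replicate 1 or 2 the upward count was 105 or 106.

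Hmox1, haem oxygenase 1 of the oxidative stress response, had 231, 441, 236 and 388 CPM without the label and 1561, 1630.4, 1479 and 1513 CPM with it, so replicate 2 was far above replicate 1 on the side without the label only. Its side difference was 2.704 ± 0.051 in replicate 1 and 1.92 ± 0.048 in replicate 2, a change of -0.78 ± 0.068 (edgeR adjusted p = 1.64e-19). Bnip3, a mitophagy gene induced by hypoxia, had 22.1, 33.6, 19.4 and 30.7 CPM and 369, 237, 358 and 273 CPM, with side differences of 4.12 ± 0.087 and 2.98 ± 0.082 (edgeR adjusted p = 1.16e-11). Here both sides moved, in opposite directions. Cdkn1a, Prdx1 and the neutrophil chemokine Cxcl2 shifted by -0.84 ± 0.089, -0.49 ± 0.056 and -0.53 ± 0.062 (edgeR adjusted p = 8.88e-14, 3.80e-12 and 1.36e-11).

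Genes lower with the label showed the same shrinkage. Scd2, a fatty acid desaturase, had 673, 604, 669 and 604 CPM without the label and 206, 288, 193 and 249.97 CPM with it, and side differences of -1.75 ± 0.056 in replicate 1 and -1.16 ± 0.052 in replicate 2 (edgeR adjusted p = 8.92e-10). The proliferation marker Mki67 had 695, 579, 744 and 616 CPM and 276, 359, 288 and 318 CPM, with -1.35 ± 0.053 and -0.82 ± 0.051 (edgeR adjusted p = 7.21e-09). In both genes the replicate 2 libraries of each side lay nearer to the other side than the replicate 1 libraries did. Fasn, Pdia4 (a protein disulphide isomerase of the endoplasmic reticulum) and Psat1 (of serine synthesis) shifted by 0.52 ± 0.072, 0.53 ± 0.084 and 0.50 ± 0.083 (edgeR adjusted p = 7.21e-09, 8.89e-07 and 3.43e-06). Every one of these 10 genes kept the sign of its side difference in both replicate numbers.

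**Figure D5:**
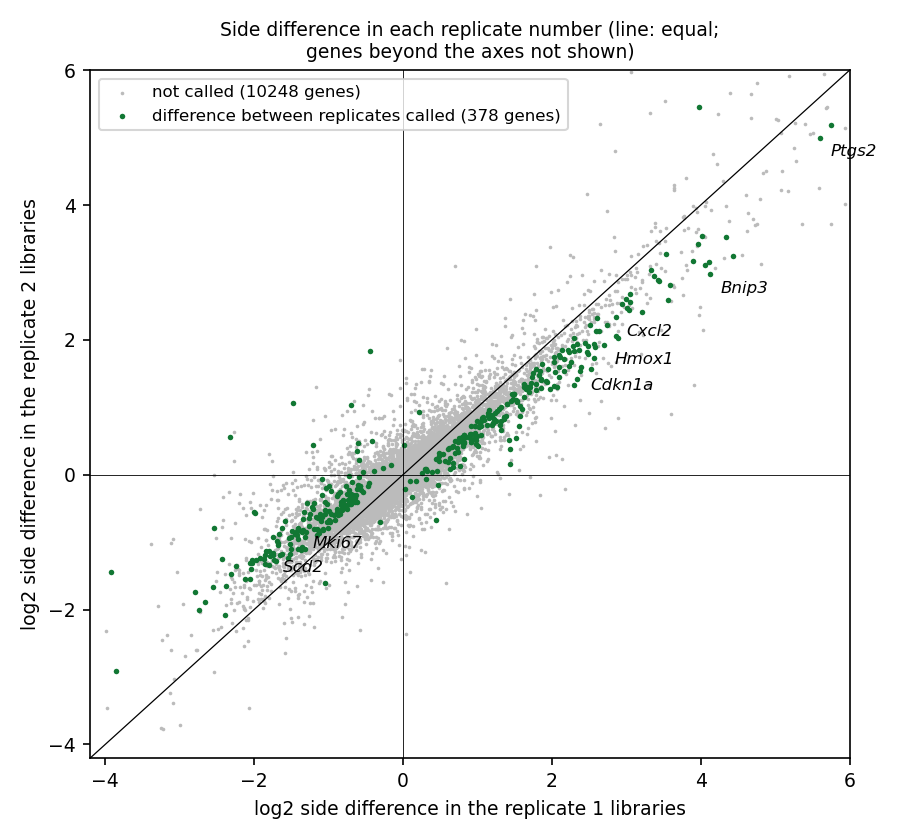
Log2 difference between the sides in the replicate 2 libraries (y axis) against that in the replicate 1 libraries (x axis) for genes within the axes, with the 378 genes whose difference between replicates was called in green. Most green points lie nearer to 0 on the y axis than on the x axis, for example Bnip3 at 4.12 and 2.98.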

How the data were processed

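Polyadenylated RNA of 8 RAW264.7 libraries was sequenced after preparation with a kit that does not keep strand, per the labels' protocols. The deposited gene counts were made by the authors from STAR 2.7.0 alignments, per the submitters' processing notes, with featureCounts 2.0.1 over RefSeq exons of GRCm38.p6, per the file headers. The authors also deposited regularised log2 values, used here only as an alternative, and the deposited table gives each gene's length. Genes and antisense partners cannot be told apart, and the 1740 symbols with a numbered assembly copy can lose reads to it. All 8 columns were mapped to samples by name.

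Genes kept had enough counts for edgeR's filterByExpr (minimum count 10, minimum total 15, grouped by side), 10626 of 42454. Counts were fitted with edgeR 4.0.16 (R 4.3.3), TMM factors, robust quasi-likelihood tests and Benjamini-Hochberg adjustment over all kept genes, calling genes at an adjusted p under 0.05. The side comparison has replicate number as a block (5 residual degrees of freedom). Stimulus label and interaction were tested in the 4-group fit with the same block (3 residual degrees of freedom). Replicate number and its dependence on side were tested in fits with those terms and without the stimulus label. The scripts were tested on simulated data. Alternatives used DESeq2 1.42.0 and limma 3.58.1. Intervals of count ratios and bounds cover counting error only, with a floor of 3 counts. Motifs were searched with Python 3.11.15.

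The rule for named genes took the 4 markers, the 10 largest gains and losses of mean CPM, the 10 largest fold changes in each direction at a mean log2 CPM of at least 5, the 5 genes at 0 on one side with the most counts on the other, up to 3 members and the flattest of each list, and the 5 genes of smallest p in each direction of each other test (2 where none was called), leaving out unnamed models. Gains, losses and fold changes were ranked among called genes whose libraries did not overlap between the sides. Members and lists were chosen with earlier results of these data known. Some items are not reported here.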

Additional observations from a re-analysis of the deposited data

Results flagged for a closer look

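Whether the difference between the sides depended on the replicate number was tested directly in edgeR with Benjamini-Hochberg adjustment. In replicate 2 that difference was shifted upward for 169 genes and downward for 209. The 10 given here are the named genes of smallest p, 5 in each direction. Each value is the side difference in replicate 2 minus that in replicate 1 on the log2 scale. Genes higher with the compound label had a smaller difference in replicate 2: Hmox1 by -0.78 ± 0.068 (edgeR adjusted p = 1.64e-19), Cdkn1a by -0.84 ± 0.089 (8.88e-14), Prdx1 by -0.49 ± 0.056 (3.80e-12), Bnip3 by -1.15 ± 0.13 (1.16e-11) and Cxcl2 by -0.53 ± 0.062 (1.36e-11). Genes lower with the label also had a smaller difference in replicate 2: Scd2 by 0.59 ± 0.076 (edgeR adjusted p = 8.92e-10), Fasn by 0.52 ± 0.072 (7.21e-09), Mki67 by 0.54 ± 0.074 (7.21e-09), Pdia4 by 0.53 ± 0.084 (8.89e-07) and Psat1 by 0.50 ± 0.083 (3.43e-06). The labels do not say what a replicate number marks. Within the sides, 90 groups of 4 libraries, from 40 named genes and 5 measures of the libraries, were searched for a library far from the other 3, and 0 were found. Apart from the markers, these genes were picked among called genes whose libraries did not overlap between the sides. That choice disfavours genes with a stray library, so the search says little about other genes.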

How the results depend on the processing

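The side comparison called 3539 genes higher and 3527 lower. The counts were 3606 and 3450 with RLE factors, 3391 and 3229 with DESeq2, 3543 and 3514 with limma-voom, 3519 and 3497 with no replicate block (6995 calls shared), 2891 and 2758 in TubB minus mock alone, and 3383 to 3515 and 3303 to 3430 with 1 library left out. At least 2-fold, 1064 and 645 remained in the side comparison, 0 and 5 in the replicate number test and 14 and 8 in its dependence on side, by the construction of that threshold. On the deposited regularised log2 values limma called 3693 and 3402, and of 206 named genes 109 moved by over 1.5 times, all towards 0 with no change of sign, such as Nos2 to 3.33, Ptgs2 to 3.34, Gbp5 to 4.67, Cx3cr1 to -2.03 and C5ar1 to -0.35. Library totals in place of TMM factors, chosen after seeing the data, gave 2423 and 5115 and turned the direction of 6 genes that TMM factors left uncalled: Hif1a (-0.21), Tgfbr1 (-0.20), Slc38a1 (-0.21), Rab35 (-0.21), Bax (-0.19) and Lyz2 (-0.19). Azin1, Sirpa, Mfn2, Pcna, Ctsk, Ifngr1 and Tlr4, also uncalled with TMM factors, were called lower there, and Slc7a7, called higher with TMM factors, was not called. In 1 pair of groups alone Ms4a6c, Ocstamp, Alox5ap, Egr3, Spr, Casp9 and Tfeb were not called.

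Replicate numbers did not pair all libraries: deviations of same-numbered libraries correlated at 0.145 and 0.264 within the sides and at -0.0937 to 0.00117 across them, over 8806 genes. With no replicate block, and under every other alternative run, the stimulus label called 0 genes. The interaction called 1 gene lower, AY036118, with no filter on low counts (adjusted p = 0.000281), with a block within each side (2.31e-09), and in 2 of 8 fits with 1 library left out (0 to 1 genes, 0.0106 and 0.0297). The replicate number test called 20 genes higher with no filter, 5 higher and 34 lower with DESeq2, 86 lower with limma-voom, and 4 to 12 higher and 24 to 73 lower with 1 library left out. Its dependence on side called 58 higher with DESeq2, and 67 to 227 higher and 136 to 246 lower with 1 library left out. Except for the 2-fold threshold, the cause was not tested. Depth limits genes near the filter and every count ratio with few reads on one side.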

Other observations

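By annotated kind, long non-coding RNA genes were split less evenly than coding genes. Of 377 long non-coding genes tested, 29.7% were called higher with the compound label and 15.9% lower (median log2 fold change 0.14). Of 9889 coding genes, 33.7% were higher and 34.2% lower (median -0.019). These values come from the comparison that chose the sides and were not tested. Abundance was not matched between the kinds. A gene with few counts on one side could pass the filter through the other side alone.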
